A study of Mus musculus with 9 samples.

Results

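The genes described here are 10 genes linked to the hormone hepcidin, to iron sensing or to iron transport in the mouse liver. They are the hepcidin genes Hamp and Hamp2, the bone morphogenetic protein (BMP) ligands Bmp2 and Bmp6, the BMP target genes Id1 and Smad7, the iron sensors Hfe and Tfr2, and the iron transporters Tfrc and Slc40a1. They were chosen by name for these roles, with earlier results of these data known, and all 10 were among the 27945 genes of the deposited table. RNA-seq of whole mouse liver had been carried out in 9 libraries, 3 from mice given saline, 3 from mice given gefitinib, an inhibitor of the epidermal growth factor receptor, and 3 from mice given glycyrrhizic acid, a saponin of liquorice root, together with gefitinib. Treatment lasted 16 days in every group, and the livers were kept frozen before RNA extraction. The sources used here do not give the strain, sex, age or doses. Every mouse of the last group, called combined below, had also received gefitinib, no group received glycyrrhizic acid alone, and the 3 comparisons share libraries with each other. The study set out to compare gefitinib-induced liver injury with and without glycyrrhizic acid. No label states whether a group's libraries came from separate mice, so the p-values measure the spread between these libraries, and how much of it is technical was not tested. That spread exceeded counting error, as replicate pairs gave chi-square values of 81.8 to 169 for each degree of freedom.

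Hepcidin is a peptide hormone secreted by hepatocytes that makes cells take the iron exporter ferroportin off their surface, which holds iron inside macrophages and gut cells. Its gene is switched on mainly by BMP2 and BMP6, which liver sinusoidal endothelial cells release onto hepatocytes, where BMP receptors with the co-receptor hemojuvelin phosphorylate SMAD proteins. HFE and transferrin receptor 2 tune that signal to the iron carried by transferrin, the protease matriptase-2 damps it, and interleukin 6 acting through STAT3 raises hepcidin in inflammation. Inside cells, iron regulatory proteins bind stem-loops called iron-responsive elements in messenger RNAs, and by this protect the transferrin receptor message and hold back translation of ferritin and ferroportin when iron is short.

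The promoters of both hepcidin genes are shown because the BMP and STAT3 signals meet there and because Hamp and Hamp2 are near copies of each other. The sequences are the 250 bases before each RefSeq transcription start on the minus strand of GRCm38.p6 chromosome 7, at chr7:30944030-30944279 for Hamp and chr7:30924182-30924431 for Hamp2, written 5′ to 3′. Capitals mark GGCGCC, the letters of the BMP-responsive element described in hepcidin promoters, or the bases aligned with it, and a match to TTCNNNGAA, the letters bound by STAT factors.
Hamp: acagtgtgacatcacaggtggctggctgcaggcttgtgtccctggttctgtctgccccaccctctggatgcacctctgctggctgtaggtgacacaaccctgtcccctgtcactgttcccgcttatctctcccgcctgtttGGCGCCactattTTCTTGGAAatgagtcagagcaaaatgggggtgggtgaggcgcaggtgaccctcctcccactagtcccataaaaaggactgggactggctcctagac
Hamp2: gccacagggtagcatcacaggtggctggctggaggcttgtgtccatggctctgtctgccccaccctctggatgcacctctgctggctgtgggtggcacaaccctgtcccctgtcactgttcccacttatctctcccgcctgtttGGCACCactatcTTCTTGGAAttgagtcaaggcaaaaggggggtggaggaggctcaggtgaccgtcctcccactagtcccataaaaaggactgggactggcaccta
The promoters had 227 of 247 aligned bases in common (91.9%), with 6 bases in gaps. Counting from 1 at the 5′ end of the GGCGCC of Hamp, Hamp2 carried the change G4A. GGCGCC began 109 bases before the Hamp start, and the aligned bases began 106 bases before the Hamp2 start. TTCTTGGAA lay at -97 to -89 in Hamp and at -94 to -86 in Hamp2, and neither motif overlapped the other. Both motifs read the same on either strand. GGCGCC occurred in 9.59% and TTCNNNGAA in 7.02% of the 32851 RefSeq promoters of the same length, so a match is common and describes only these letters. The RefSeq table held promoters for 6 of the 10 genes, and among the other 4 of these (Tfr2, Hfe, Bmp6 and Tfrc) only Tfrc had a match, a GGCGCC at -89 to -84.

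Libraries held from 56440871 to 60665156 counts, and all 10 genes passed the filter on low counts that left 18113 tested genes. The hepatocyte markers, Alb and Ttr among them, were high in every library, at 69813 to 100206 CPM (counts scaled to the library total) summed over 8 genes and none at 0, which fits the liver label. The library labelled gefitinib replicate 1 stood apart from its group. Its 10 skeletal muscle markers summed to 181 CPM, as in the combined libraries (119 to 159 CPM), against 0.340 to 1.27 CPM in saline and 0.932 and 0.630 CPM in the other gefitinib libraries. Saline and gefitinib libraries other than that one had 5 to 7 of the 10 muscle markers at 0 counts. On this measure the library resembled the combined group and not its own, while its macrophage markers (54.6 CPM) and immediate early genes (119 CPM) lay far below the combined libraries. It was kept under its label, and whether that label holds was not tested. Without it, the Bmp2 call for gefitinib against saline was kept (log2 fold change -1.62, edgeR adjusted p = 0.0426) and that of Hfe was lost (adjusted p = 0.0566). For combined against gefitinib, the calls of Hamp2 (-2.59, adjusted p = 0.0132) and Slc40a1 (-0.76, adjusted p = 0.0257) were kept, and those of Tfr2 and Tfrc were lost (adjusted p = 0.0671 and 0.119). The combined libraries were also higher in monocyte-derived macrophage markers (482 to 662 CPM over 8 genes, against 33.0 to 78.7 CPM in the other groups) and in immediate early genes (436 to 556 CPM over 12 genes, against 119 to 367 CPM). The part of any of these in the results was not tested. In whole liver, fewer cells of a type and less RNA per cell cannot be told apart.

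Compared by FPKM, which is scaled for gene length, Hamp was the most abundant of the 10 genes in each group, at 790.4 ± 368 FPKM in saline (SD, n = 3). Tfr2 was second in each group, at 90.3 ± 1.08 FPKM in saline, and Hamp2 came next in saline and gefitinib. Slc40a1 followed in saline at 15.8 ± 1.44 FPKM, and Hfe, Id1 and Tfrc lay between 3.68 and 6.73 FPKM, with Hfe, Id1, Tfrc and Bmp2 each overlapping its neighbour in this order. Bmp2 and Smad7 stood at 2.91 ± 0.730 and 1.43 ± 0.227 FPKM, and Bmp6 was lowest in every group, at 0.424 ± 0.0316 FPKM in saline. The order of the lower genes altered in the combined group, where Tfrc ranked 3 of 10 at 13.3 ± 3.94 FPKM and Hamp2 ranked 7 of 10 at 4.03 ± 0.518 FPKM. Per library, the counts of Bmp6 ran from 32 to 117.

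Against saline, gefitinib left most of the 10 genes uncalled. By edgeR's quasi-likelihood test at an adjusted p under 0.05, Hfe rose and Bmp2 fell, which is 2 of 10 where 1.14% of all tested genes were called (0.547% higher and 0.591% lower). The libraries of the groups did not overlap for 5 of the 10, against 20% of all tested genes. The combined group differed from gefitinib in 4 of the 10, with Tfrc higher and Hamp2, Slc40a1 and Tfr2 lower, where 9.08% of all genes were called (4.96% higher and 4.11% lower), and 8 did not overlap, against 31.2% of all genes. The combined group differed from saline in 7 of the 10, with Hfe and Tfrc higher and Hamp2, Bmp2, Smad7, Tfr2 and Slc40a1 lower, where 17.7% of all genes were called (9.37% higher and 8.32% lower). All but Id1 did not overlap between those groups, 9 of 10 against 37.3% of all genes. The median log2 fold change over the 10 genes was -0.35, -0.63 and -0.89 in these comparisons, beside -0.00, 0.01 and -0.01 over all tested genes. Over all genes, 99 were higher and 107 lower with gefitinib against saline, 899 and 745 for combined against gefitinib, and 1698 and 1507 for combined against saline. When FPKM was tested with limma instead (log2 of FPKM + 1), the splits were 45 and 58, 1851 and 406, and 3314 and 849, and with a pseudocount of 0.1 the median over all genes moved to 0.04, 0.15 and 0.18.

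**Figure D1:**
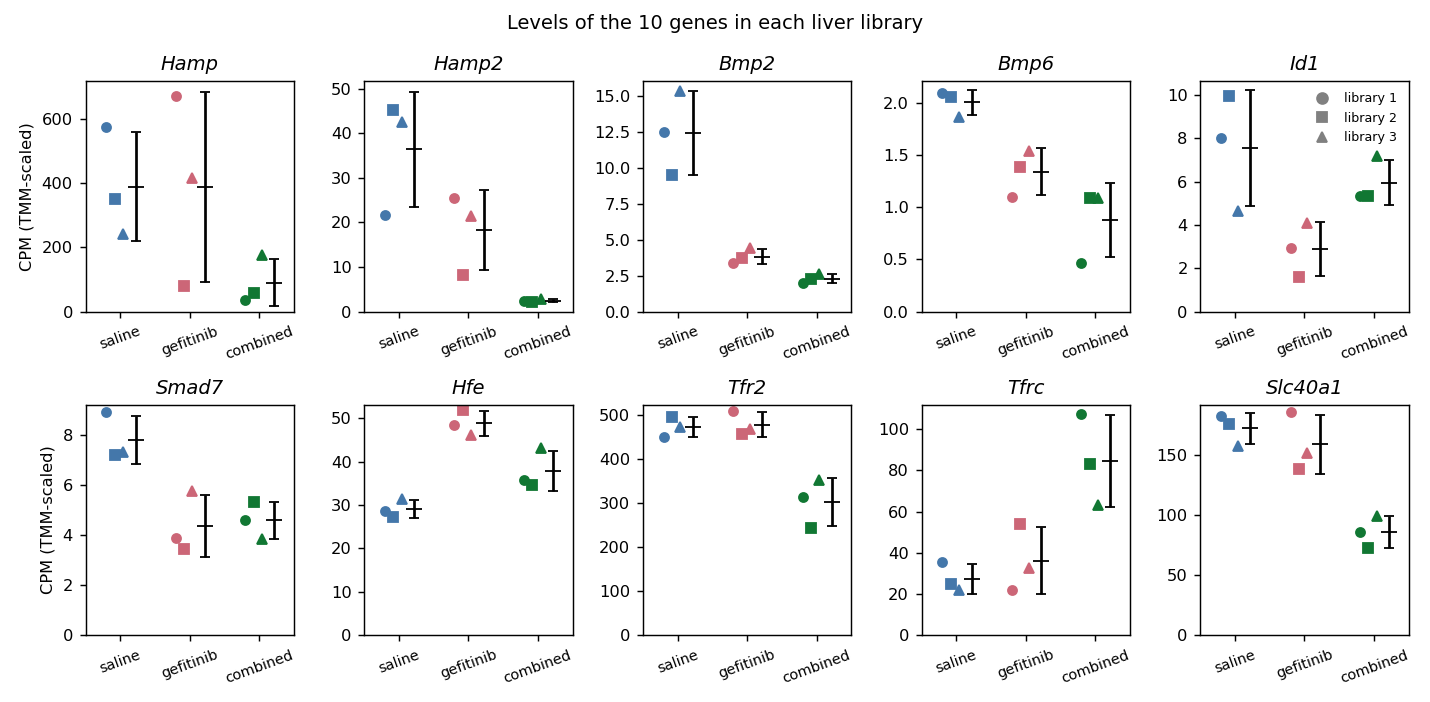
Levels of the 10 genes in TMM-scaled CPM, 1 panel a gene on its own linear axis from 0, with 1 marker for each of the 9 libraries (circle, square and triangle for libraries 1, 2 and 3) and black bars for the mean ± SD of each group of 3. Hamp2 in the combined libraries (2.14 to 2.83 CPM) lies below every other library, while the Hamp libraries of saline and gefitinib span 80.1 to 670.1 CPM.

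**Figure D2:**
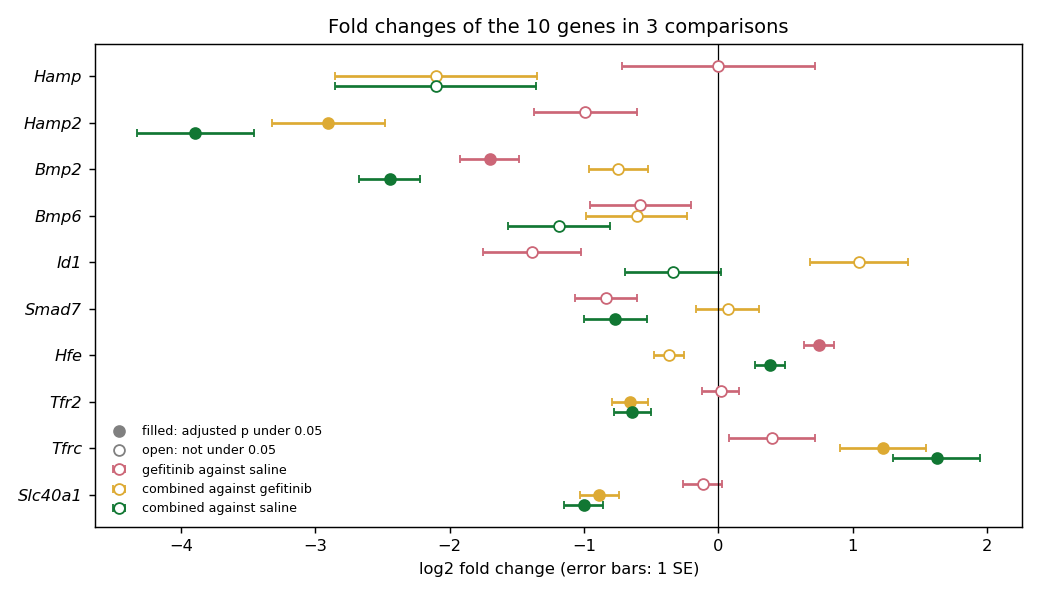
Log2 fold changes of the 10 genes from edgeR in the 3 comparisons, told apart by colour, with error bars of 1 SE and filled points where the adjusted p was under 0.05. Hamp2 in the combined group against saline, at -3.89, lies farthest from 0, and Hamp has the widest error bars and only open points.

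Hamp, which encodes hepcidin itself (ENSMUSG00000050440, minus strand, chr7:30942368-30944032), varied widely within groups. It stood at 574, 351 and 241 CPM in the saline libraries, at 670.1, 80.1 and 414 CPM in the gefitinib libraries and at 37.2, 58.3 and 176 CPM in the combined libraries. All combined libraries were below all saline libraries, but the gefitinib group held both the highest and a low value, and overlapped both other groups. The log2 fold change against saline was -0.00 ± 0.72 (SE) with gefitinib (adjusted p = 1) and -2.10 ± 0.75 in the combined group (edgeR adjusted p = 0.0822). Against gefitinib the combined group was lower by a log2 fold change of -2.10 ± 0.75 (adjusted p = 0.117). Hamp was therefore not called in any comparison. The combined difference from saline passed the test without gefitinib replicate 2 (log2 fold change -2.09, adjusted p = 0.0378), without combined replicate 3 (-3.02, adjusted p = 0.0413) and with only the 6 libraries compared (-2.09, adjusted p = 0.0485). The difference from gefitinib passed it without gefitinib replicate 2 (-2.58, adjusted p = 0.0430), but was -1.45 without gefitinib replicate 1 (adjusted p = 0.339) and -3.02 without combined replicate 3 (adjusted p = 0.0657). Over all single libraries left out it ran from -3.02 to -1.45, and the difference from saline from -3.02 to -1.71.

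Hamp2, a second mouse hepcidin gene that lies close to Hamp (ENSMUSG00000056978, minus strand, chr7:30922372-30924181), fell in the combined group to a small part of its level elsewhere. Saline libraries held 21.5, 45.1 and 42.6 CPM, gefitinib libraries 25.4, 8.24 and 21.4 CPM, and combined libraries 2.38, 2.14 and 2.83 CPM. The combined values were close to each other and below every other library, while saline and gefitinib overlapped. The fall was 14.9-fold against saline (log2 fold change -3.89 ± 0.43, edgeR adjusted p = 0.000469) and 7.48-fold against gefitinib (-2.90 ± 0.42, adjusted p = 0.00337), and both passed in each of the 16 alternative settings. With gefitinib alone the log2 fold change from saline was -0.99 ± 0.39 (adjusted p = 0.284). Whether the Hamp2 product acts on iron as that of Hamp does was not tested.

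The annotated Hamp and Hamp2 transcripts matched at 388 of 410 aligned bases (94.6%), with a longest shared run of 87 bases, so reads may have been split between the genes in a way the deposited counts do not show. The summed Hamp and Hamp2 counts, tested as an alternative chosen after seeing the data, gave -2.19 for combined against saline (adjusted p = 0.0638). The share of hepcidin counts assigned to Hamp2 was 3.62%, 11.4% and 15.0% in the saline libraries. It was 3.65%, 9.33% and 4.90% in the gefitinib libraries and 6.01%, 3.54% and 1.59% in the combined libraries. The groups overlapped, with means of 10.01% ± 5.83, 5.96% ± 2.98 and 3.71% ± 2.22 (SD, n = 3). Two-sided exact permutation tests gave p = 0.4 for gefitinib against saline, 0.4 for combined against gefitinib and 0.2 for combined against saline, and no such test with 3 against 3 libraries can go below 0.1. Wilson 95% intervals on single shares, such as 1.37% to 1.83% for combined replicate 3, cover counting error only.

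Likeness to Hamp was measured over the 9236 tested genes with a mean of at least 1 FPKM and a standard symbol (no Gm, Rik, clone or -ps name). Those whose log2 CPM stayed closest to Hamp over the 9 libraries were Alas2, Smad9 and Gas1, with mean absolute differences of 0.53, 0.56 and 0.68 after centring. Alas2, which encodes the heme synthesis enzyme of red cell precursors, stood at 115 CPM in saline, 78.8 in gefitinib and 23.5 in the combined group. It is on the red cell marker list, whose sum was 652 to 949 CPM in saline and 861 to 1981 CPM in gefitinib, while the combined libraries had 349 to 585 CPM.

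The BMP ligand genes were both at lower levels in gefitinib-treated livers, but only Bmp2 passed the test. Bmp2 (ENSMUSG00000027358, plus strand, chr2:133552159-133562885) encodes a ligand that endothelial cells supply to hepatocytes. Saline libraries held 12.5, 9.48 and 15.4 CPM, gefitinib libraries 3.35, 3.70 and 4.41 CPM, and combined libraries 1.97, 2.28 and 2.60 CPM. No library of one group overlapped another group. Bmp2 fell 3.26-fold with gefitinib (log2 fold change -1.70 ± 0.22, edgeR adjusted p = 0.0118) and 5.45-fold in the combined group against saline (-2.45 ± 0.23, adjusted p = 0.000187). Combined against gefitinib, the log2 fold change was -0.74 ± 0.22 (adjusted p = 0.0646), and DESeq2 gave an adjusted p of 0.0255. The fall with gefitinib missed the threshold without gefitinib replicate 2 (-1.67, adjusted p = 0.0609), and the fall in the combined group passed in all 16 alternatives.

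Bmp6 (ENSMUSG00000039004, plus strand, chr13:38345107-38500302), the other endothelial ligand, had group means in the same order as Bmp2. It was at 2.09, 2.06 and 1.87 CPM in saline and 1.10, 1.38 and 1.54 CPM in gefitinib, while the combined libraries had 0.469, 1.08 and 1.09 CPM. The combined libraries lay below the gefitinib libraries by a small gap, and both lay below saline. The log2 fold changes were -0.58 ± 0.37 with gefitinib (edgeR adjusted p = 0.548) and -1.19 ± 0.38 for combined against saline (adjusted p = 0.0563), and -0.61 ± 0.38 for combined against gefitinib (adjusted p = 0.368). The combined difference from saline passed with DESeq2 (adjusted p = 0.0217) and with limma on log2(FPKM + 1) (adjusted p = 0.0313). In the annotation, 224 of its 3900 exonic bases are shared with Txndc5 on the other strand, which stood at 145, 161 and 163 CPM in the 3 groups, and no source used here says whether strand was used in counting.

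Endothelial markers were lower in the same groups as Bmp2. The 16 sinusoidal endothelial markers summed to 423 to 540 CPM in saline and 194 to 212 CPM in gefitinib, while the combined libraries had 101 to 146 CPM, and none was at 0. Of the 16, 11 fell with gefitinib, 6 fell further in the combined group against gefitinib and all 16 fell against saline, with none rising. The shares of all tested genes that fell in these comparisons were 0.591%, 4.11% and 8.32%. Among the same 9236 genes, those whose log2 CPM stayed closest to Bmp2 over the 9 libraries were Fam167b, Gpr182 and Fcgr2b. Their mean absolute differences were 0.14, 0.16 and 0.18 after centring, and Gpr182 and Fcgr2b are on that marker list. Set against the marker sum, Bmp2 was 2.57% ± 0.305 in saline, 1.88% ± 0.345 in gefitinib and 1.77% ± 0.192 in the combined group (SD, n = 3). The exact permutation p was 0.2 for gefitinib against saline, 0.7 for combined against gefitinib and 0.1 for combined against saline. Bmp6 was 0.424% ± 0.0717 of the sum in saline, 0.661% ± 0.130 in gefitinib and 0.653% ± 0.164 in the combined group, with exact p = 0.1, 1 and 0.2. After adjustment over the 9 permutation tests of shares and ratios, the smallest value was 0.36. The part of the endothelial markers in the Bmp2 and Bmp6 values was not tested beyond these ratios.

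**Figure D3:**
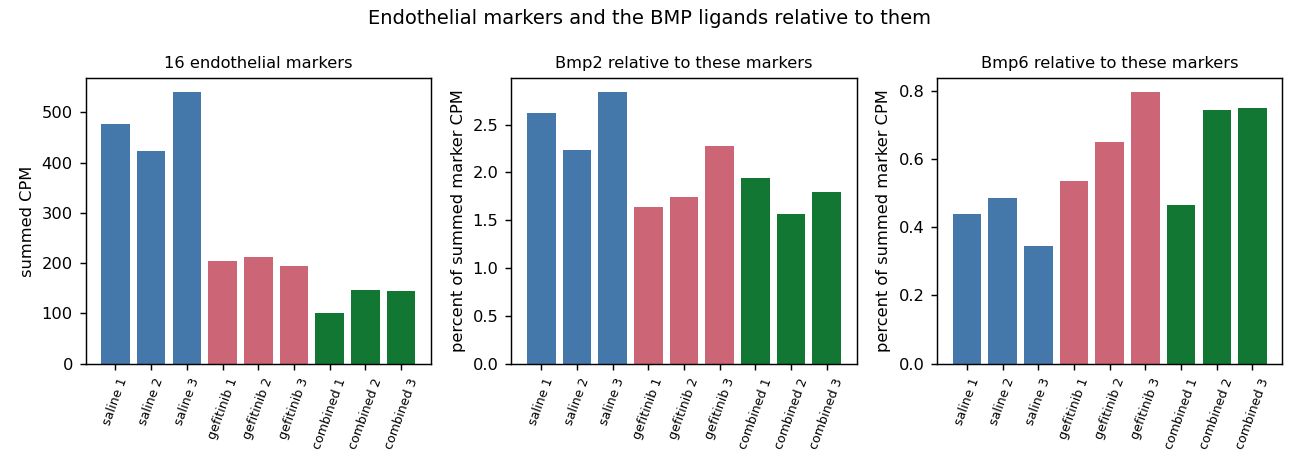
Bars for each of the 9 libraries, coloured by group, of the summed CPM of 16 sinusoidal endothelial markers (left) and of Bmp2 (middle) and Bmp6 (right) as a percentage of that sum. The marker sum is 423 to 540 CPM in saline and 101 to 146 CPM in the combined libraries. Bmp2 ranges from 1.56% to 2.84% of it, with means of 2.57%, 1.88% and 1.77% in saline, gefitinib and combined. Bmp6 ranges from 0.345% to 0.796%, with means of 0.424%, 0.661% and 0.653%.

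Id1, a dominant-negative helix-loop-helix factor and classical BMP target, had values of 8.04, 9.94 and 4.67 CPM in saline and 2.95, 1.60 and 4.10 CPM in gefitinib, while the combined libraries had 5.34, 5.36 and 7.18 CPM (ENSMUSG00000042745, plus strand, chr2:152736251-152737410). The gefitinib libraries were the lowest and did not overlap either other group, while saline and combined overlapped. The log2 fold change was -1.39 ± 0.37 with gefitinib against saline (edgeR adjusted p = 0.115), 1.05 ± 0.36 for combined against gefitinib (adjusted p = 0.108) and -0.34 ± 0.36 for combined against saline (adjusted p = 0.571). DESeq2 gave adjusted p = 0.00740 for gefitinib against saline and 0.0286 for combined against gefitinib, where limma on log2(FPKM + 1) gave 0.0471. The immediate early genes were highest in the combined libraries, and their part in the Id1 values was not tested.

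Smad7, the inhibitory SMAD that BMP signalling induces as feedback (ENSMUSG00000025880), was highest in saline. It stood at 8.94, 7.21 and 7.33 CPM in saline and 3.91, 3.45 and 5.79 CPM in gefitinib, while the combined libraries had 4.62, 5.33 and 3.84 CPM. Both treated groups lay below saline and overlapped each other. Smad7 fell in the combined group against saline by 1.70-fold (log2 fold change -0.77 ± 0.23, edgeR adjusted p = 0.0477), and this value sat close to the threshold. It missed it in 11 of 16 alternatives, among them without saline replicate 1 (adjusted p = 0.139), 2 (0.0841) or 3 (0.0846), without gefitinib replicate 1 (0.0609) and without combined replicate 1 (0.117), 2 (0.0624) or 3 (0.145). With gefitinib alone the log2 fold change was -0.84 ± 0.23 (adjusted p = 0.134, and 0.0304 by DESeq2).

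Among 12 tested BMP target genes, of which 4 are described above, 5 fell in the combined group against saline and none rose, where 8.32% of all genes fell and 9.37% rose. The 5 were Hamp2, Smad7, Smad9, Smad6 and Id4, the first 2 of which are already counted among the 10. In the same comparison all 16 endothelial markers and 4 of 8 stellate cell markers fell, with none rising. The part of cell composition in the BMP target values was not tested, and whole liver does not show which cells they came from. Smad9, a BMP-activated SMAD that is also a target, fell from 24.6, 10.1 and 7.71 CPM in saline to 1.23, 2.26 and 4.17 CPM, with gefitinib at 11.7, 13.5 and 13.8 CPM. Its log2 fold change was -2.47 ± 0.50 against saline (adjusted p = 0.00863) and -2.35 ± 0.50 against gefitinib (adjusted p = 0.0189), and the latter missed the threshold in 3 of 16 alternatives, without gefitinib replicate 3 and without combined replicates 1 or 2 (adjusted p up to 0.0636). The inhibitory Smad6 fell against saline (-1.31 ± 0.33, adjusted p = 0.0227), a call that was lost without saline replicate 2 or 3 or combined replicate 1 or 3 (adjusted p up to 0.0673). Id4 fell with a low count (-2.71, adjusted p = 0.0259), from 1.23 to 2.22 CPM in saline to 0.0630 to 0.543 CPM, and was lost without saline replicate 2 or 3 or combined replicate 2 or 3 (adjusted p up to 0.0813). Leaving out single libraries moved its log2 fold change from -2.25 (without combined replicate 3) to -3.92 (without combined replicate 1). Against gefitinib, Hamp2, Smad9 and Id2 fell, Id2 with a log2 fold change of -0.93 (adjusted p = 0.0473). The Id2 call was lost in 13 of 16 alternatives (adjusted p up to 0.155), those without any one library other than gefitinib replicate 2 included. Id3 and Atoh8, other BMP targets, were not called in any comparison, with log2 fold changes of -0.09 and -0.34 for combined against saline. With gefitinib against saline no gene of the list was called by edgeR, 3 had an unadjusted p under 0.05 and DESeq2 called 2. The list's median log2 fold change was -0.47, -0.40 and -0.74 for gefitinib against saline, combined against gefitinib and combined against saline.

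Hfe, whose product pairs with transferrin receptors to sense iron-loaded transferrin, rose with gefitinib (ENSMUSG00000006611, minus strand, chr13:23702034-23710854). It was at 28.7, 27.1 and 31.3 CPM in saline and 48.4, 51.8 and 46.1 CPM in gefitinib, while the combined libraries had 35.8, 34.5 and 43.2 CPM. The gefitinib libraries were highest, the combined libraries came next and the saline libraries were lowest, with no overlap between groups. The rise with gefitinib was 1.68-fold (log2 fold change 0.75 ± 0.11, edgeR adjusted p = 0.0193). Without saline replicate 2 or 3 the adjusted p was 0.0700 and 0.0508, and without gefitinib replicate 1, 2 or 3 it was 0.0566, 0.0859 and 0.0551. The combined group stood 1.30-fold above saline (0.38 ± 0.11, adjusted p = 0.0424), a call made in 5 of 16 alternatives and lost without any one of the saline libraries (adjusted p from 0.0544 to 0.131), any one of the gefitinib libraries (0.0554 to 0.0616) or combined replicate 1 (0.0688) or 3 (0.136). Against gefitinib its log2 fold change was -0.37 ± 0.11 (adjusted p = 0.0716, and 0.0459 without combined replicate 3).

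Tfr2, the hepatocyte receptor that reads transferrin saturation (ENSMUSG00000029716, plus strand, chr5:137569840-137587481), fell in the combined group. Saline libraries were at 451, 495 and 473 CPM, gefitinib libraries at 510.3, 457 and 469 CPM and combined libraries at 314, 244 and 352 CPM. Saline and gefitinib overlapped and all combined libraries lay below both. Tfr2 fell 1.56-fold against saline (log2 fold change -0.64 ± 0.14, edgeR adjusted p = 0.0109), which passed in all 16 alternatives. Against gefitinib it fell 1.58-fold (-0.66 ± 0.14, adjusted p = 0.0174), and the call was lost without gefitinib replicate 1 (-0.61, adjusted p = 0.0671) or 3 (-0.67, adjusted p = 0.0507). With gefitinib against saline the difference was 0.02 ± 0.14 (adjusted p = 0.978). Hepatocyte markers were lower too, with a sum of 69813 to 84775 CPM in the combined libraries against 87938 to 100206 CPM in saline. In that comparison 2 of the 8 fell, where 8.32% of all tested genes fell.

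Of the other receptor genes, Hjv, which encodes the BMP co-receptor hemojuvelin, was at 96.7 ± 25.9 CPM in saline, 81.1 ± 23.4 CPM in gefitinib and 58.8 ± 12.2 CPM in the combined group, and was not called (combined against saline -0.72 ± 0.25, adjusted p = 0.0767). Tmprss6, which encodes matriptase-2, fell in the combined group against saline (-0.48 ± 0.12, adjusted p = 0.0247), a call that was lost in 8 of 16 alternatives (adjusted p up to 0.0981), those without saline replicate 1 or 2 and without any one combined library included. Eng, which encodes the endothelial co-receptor endoglin, fell with gefitinib (-1.19 ± 0.18, adjusted p = 0.0202) and in the combined group against saline (-1.25 ± 0.18, adjusted p = 0.00173). Its fall with gefitinib was lost without saline replicate 2 or 3 or any one gefitinib library (adjusted p up to 0.0924). Fkbp1a, whose product binds type I BMP receptors, rose against saline (0.86 ± 0.12, adjusted p = 0.00121). Of 15 tested receptor and hemojuvelin complex genes, Hfe and Tfr2 included, 2 rose (Hfe and Fkbp1a) and 3 fell (Tfr2, Tmprss6 and Eng) in the combined group against saline, with a median log2 fold change of -0.22. Over all tested genes, 9.37% rose and 8.32% fell there.

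Tfrc, the receptor that carries transferrin iron into cells, rose in the combined group (ENSMUSG00000022797, plus strand, chr16:32608920-32632794). Saline libraries held 35.4, 25.0 and 21.7 CPM, gefitinib libraries 22.01, 53.9 and 32.4 CPM and combined libraries 107, 82.9 and 63.2 CPM. The combined libraries were the highest and did not overlap the others. Gefitinib replicate 2, the gefitinib library with the lowest Hamp and Hamp2, had the highest Tfrc of its group. In saline, replicate 1 had the highest Tfrc with the highest Hamp (574 CPM) and the lowest Hamp2 (21.5 CPM). In the combined group, replicate 1 had the highest Tfrc and the lowest Hamp, while replicate 2 had the lowest Hamp2. Tfrc rose 3.09-fold against saline (log2 fold change 1.63 ± 0.32, edgeR adjusted p = 0.00802), which passed in all 16 alternatives, and 2.34-fold against gefitinib (1.23 ± 0.32, adjusted p = 0.0424). The latter was called in 6 of 16 alternatives. It was lost without gefitinib replicate 1 (0.97, adjusted p = 0.119) or 3 (0.133), without combined replicate 1 (1.02, adjusted p = 0.135), 2 (0.0888) or 3 (0.0525), and without saline replicate 2 (0.0608) or 3 (0.0517). With gefitinib against saline the difference was 0.40 ± 0.32 (adjusted p = 0.649).

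Slc40a1, which encodes the iron exporter ferroportin that hepcidin acts on, fell in the combined group (ENSMUSG00000025993, minus strand, chr1:45908068-45926523). It stood at 182, 175 and 157 CPM in saline and 186, 138 and 152 CPM in gefitinib, while the combined libraries had 85.5, 72.7 and 98.8 CPM. All combined libraries lay below all others. The fall was 2.00-fold against saline (log2 fold change -1.003 ± 0.15, edgeR adjusted p = 0.00178) and 1.85-fold against gefitinib (-0.89 ± 0.15, adjusted p = 0.00637), and both passed in each of the 16 alternatives. With gefitinib alone the difference was -0.12 ± 0.15 (adjusted p = 0.802). The exporter is expressed in macrophages as well as hepatocytes, and the Kupffer cell markers summed to 173 to 291 CPM in saline and 257 to 312 CPM in gefitinib, while the combined libraries had 249 to 464 CPM.

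The iron-responsive elements of these transcripts are shown because they are the stem-loops by which iron regulatory proteins bind. They were found in GENCODE M21 transcripts of GRCm38 as an unpaired C and 5 paired bases on each side of a CAGTGN loop, with at least 4 of 5 lower pairs, and capitals mark the loop. Such a match occurred in 24 of 21901 genes with protein-coding transcripts (0.110%). The sites of Slc40a1 (chromosome 1), Fth1 (chromosome 19) and Ftl1 (chromosome 7) lay in the 5′ UTR, and those of Tfrc (chromosome 16) in the 3′ UTR. Tfrc sites are numbered by alphabetical order of their sequences, not by position. Elements that depart from this pattern were not sought, so the list may not be complete.
Slc40a1: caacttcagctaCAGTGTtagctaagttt
Fth1: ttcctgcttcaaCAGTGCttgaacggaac
Ftl1: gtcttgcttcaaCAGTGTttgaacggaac
Tfrc site 1: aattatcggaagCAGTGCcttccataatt
Tfrc site 2: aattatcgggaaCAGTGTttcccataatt
Tfrc site 3: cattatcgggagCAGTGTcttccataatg
Tfrc site 4: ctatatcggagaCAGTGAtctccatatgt
Fth1, the ferritin heavy chain, rose in the combined group against saline (0.75 ± 0.11, adjusted p = 0.00143), from 1362, 1451 and 1595 CPM to 2605, 2498 and 2322 CPM, with no overlap. It was at 1941, 1985 and 2001 CPM in gefitinib, 0.43 ± 0.11 above saline on the log2 scale (adjusted p = 0.0981). Ftl1, the ferritin light chain, was not called (combined against saline 0.36 ± 0.13, adjusted p = 0.0958), and Trf, which encodes transferrin, was not called in any comparison (combined against saline 0.18 ± 0.13, adjusted p = 0.373).

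Among the 17 tested genes of iron uptake and export, 4 rose and 2 fell in the combined group against saline, with Tfrc and Slc40a1 among them. In that comparison 9.37% of all tested genes rose and 8.32% fell. Lcn2, lipocalin-2, which binds bacterial iron carriers, rose from 4.15, 18.9 and 11.1 CPM in saline to 775, 449 and 603 CPM (5.74 ± 0.52, adjusted p = 0.000173). It also rose in the combined group against gefitinib (3.11 ± 0.46, adjusted p = 0.00377). Steap4, a metalloreductase, rose against saline (1.88 ± 0.14, adjusted p = 7.23e-05) and against gefitinib (1.14 ± 0.14, adjusted p = 0.00139). Slc11a1, an iron and manganese transporter of phagosomes, rose against saline (1.48 ± 0.23, adjusted p = 0.00258), in libraries that held more macrophage markers. Slc39a8, a zinc, manganese and iron importer, fell against saline with gefitinib (-0.70 ± 0.12, adjusted p = 0.0276) and in the combined group (-0.74 ± 0.12, adjusted p = 0.00250). With gefitinib against saline, Lcn2 (2.63 ± 0.45, adjusted p = 0.0312) and Steap4 (0.74 ± 0.14, adjusted p = 0.0393) also rose. The Lcn2 call was lost without saline replicate 3, combined replicate 3 or any one gefitinib library (adjusted p up to 0.105), and the Steap4 call without any one library other than saline replicate 1 (up to 0.131). The gefitinib call of Slc39a8 was lost without saline replicate 1 or 3 or gefitinib replicate 1 or 2 (up to 0.129).

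Of 26 tested genes of heme handling and mitochondrial iron, 7 rose, 3 fell and 16 were not called in the combined group against saline, where 9.37% of all genes rose and 8.32% fell. The 3 that fell were the heme synthesis genes Alas2 (-2.29 ± 0.44, adjusted p = 0.00658), Fech (-0.49 ± 0.12, adjusted p = 0.0194) and Ppox (-0.40 ± 0.11, adjusted p = 0.0292). These 3 calls were not followed through the alternatives. Alas2 also fell against gefitinib (-1.75 ± 0.43, adjusted p = 0.0345), a call kept in 7 of 16 alternatives. Hmox1, which encodes heme oxygenase 1, rose from 21.6 ± 6.04 to 53.8 ± 2.39 CPM (1.32 ± 0.19, adjusted p = 0.00164), with gefitinib at 31.8 ± 4.65 CPM. Slc48a1, a heme transporter of endolysosomes, rose (1.51 ± 0.21, adjusted p = 0.00131), as did Blvrb, a biliverdin reductase (1.06 ± 0.16, adjusted p = 0.00192). The plasma scavengers of heme and haemoglobin rose as well, Hpx by 1.47 ± 0.19 (adjusted p = 0.000853) and Hp by 0.93 ± 0.13 (adjusted p = 0.00124). Both had also risen with gefitinib against saline, Hpx by 0.99 ± 0.18 (adjusted p = 0.0423) and Hp by 0.83 ± 0.13 (adjusted p = 0.0202). Those gefitinib calls were kept in 4 of 16 alternatives for Hpx and in 10 of 16 for Hp. Neither gene was called for combined against gefitinib. The median over the 26 genes for combined against saline was -0.01 on the log2 scale, the same as over all genes. Among 12 tested genes of iron storage and IRP sensing, 1 rose (Fth1) and 3 fell against saline (Cisd1, Ireb2 and Pcbp2). Cisd1, a mitochondrial iron-sulfur protein (-0.96 ± 0.11, adjusted p = 0.000610), also fell against gefitinib (-0.75 ± 0.11, adjusted p = 0.00389). Ireb2, which encodes an iron regulatory protein, fell against saline (-0.51 ± 0.12, adjusted p = 0.0152, called in 13 of 16 alternatives). It also fell against gefitinib (-0.46 ± 0.12, adjusted p = 0.0385, called in 3 of 16). The Pcbp2 fall (-0.35 ± 0.10, adjusted p = 0.0326) was called in 6 of 16.

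Of 12 tested genes of interleukin 6 input and liver transcription factors, 2 rose and 3 fell in the combined group against saline, where 9.37% of all genes rose and 8.32% fell. Stat3, which encodes the factor through which interleukin 6 acts, rose by a log2 fold change of 0.50 (adjusted p = 0.0475). This call was lost in 10 of 16 alternatives, those without saline replicate 1 or 3, gefitinib replicate 1 or 3 or any one combined library included (adjusted p up to 0.144). Cebpb, a transcription factor of the acute phase response, rose by 1.11 (adjusted p = 0.0135), a call that was lost without saline replicate 2 (adjusted p = 0.0554). Cebpa, a hepatocyte transcription factor that drives hepcidin expression, fell from 268 ± 10.9 CPM in saline and 320 ± 53.0 CPM in gefitinib to 126 ± 19.5 CPM. The log2 fold change was -1.09 ± 0.15 against saline (adjusted p = 0.00126) and -1.34 ± 0.15 against gefitinib (adjusted p = 0.00107), and both passed in all 16 alternatives. Il6st, the shared interleukin 6 receptor subunit, fell against saline (-0.63 ± 0.12, adjusted p = 0.00647). Socs3, a STAT3 target, was at 16.9 ± 4.75, 14.1 ± 3.18 and 17.4 ± 4.05 CPM in saline, gefitinib and combined, and was not called.

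Over the 110 tested pathway genes other than the 10, 5 rose and 2 fell with gefitinib against saline. In the combined group, 10 rose and 10 fell against gefitinib, and 16 rose and 15 fell against saline. Among all tested genes, 0.547% rose and 0.591% fell in the first comparison, 4.96% and 4.11% in the second, and 9.37% and 8.32% in the third. The median log2 fold changes of the 110 genes were -0.03, 0.00 and -0.07. Of the 26 genes picked by rule in the last comparison, 17 passed in every alternative, against 4 of 20 for combined against gefitinib and none of 7 for gefitinib against saline. Of 18 tested BMP ligand and antagonist genes, Bmp2 included, 3 were called in the combined group against saline, where 17.7% of all genes were called. Bmp2 fell, and Fgl1 and Fstl1 rose. Fstl1, a follistatin-like protein, had a log2 fold change of 1.38 (adjusted p = 0.0314), and its call was lost without saline replicate 2 or 3 or any one combined library (adjusted p up to 0.105). Fgl1, a liver-secreted BMP antagonist, rose with gefitinib (1.38 ± 0.25, adjusted p = 0.0377, lost in 11 of 16 alternatives, those without any one saline or gefitinib library or without combined replicate 1 included) and in the combined group against saline (1.14 ± 0.25, adjusted p = 0.0122). Erfe, the erythroid hormone that suppresses hepcidin, and Il6 were too low to test, at no more than 0.266 and 0.183 CPM in any library.

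**Figure D4:**
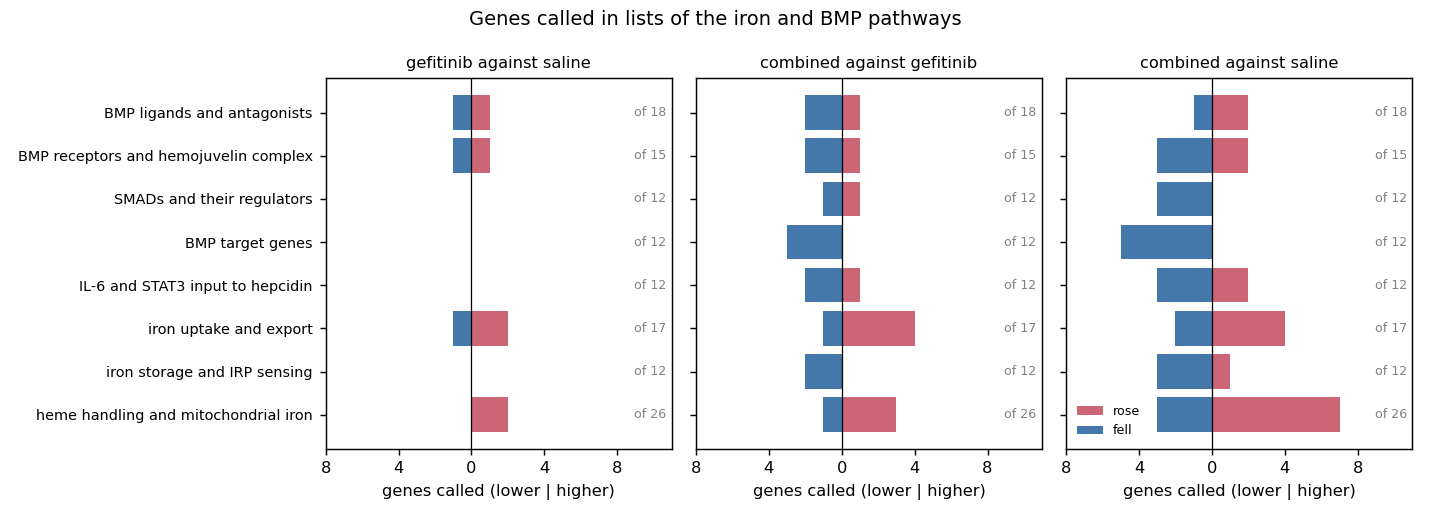
Number of genes of each pathway list called in each comparison, with bars to the right for genes that rose, bars to the left for genes that fell, and the number tested in grey. In the combined group against saline the BMP target genes show 5 that fell and none that rose, and heme handling shows 7 that rose and 3 that fell.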

How the data were processed

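Libraries were made from 1.3 ug of total RNA with a SMARTER mRNA-Seq kit, per the labels' protocols. The deposited table gives, per the file headers, a count and an FPKM value for each gene and library. Raw counts are whole numbers and were not normalized by the authors, and FPKM, scaled for gene length and library depth, was computed by the authors. The build GRCm38 (mm10) is named in the submitters' processing notes; no source used here names the aligner, counter or strand setting. Total counts ran from 56440871 to 60665156.

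Counts were filtered with edgeR 4.0.16 (R 4.3.3) filterByExpr, which left 18113 genes and dropped 9832, scaled by TMM (factors 0.905 to 1.14) and fitted with the quasi-likelihood test, 1 mean per group over all 9 libraries, with 6 residual degrees of freedom. The factors were 1.05 to 1.14 in the combined libraries and 0.905 to 0.998 in the others. For combined against saline, limma on log2(FPKM + 1) gave -0.43 for Tfr2 (-0.64 by edgeR) and -0.73 for Slc40a1 (-1.003 by edgeR). It gave 0.54 for Hfe (0.38 by edgeR) and 1.60 for Tfrc (1.63 by edgeR). The part of the scaling in these differences was not tested. Calls used a Benjamini-Hochberg adjusted p under 0.05 over all tested genes. CPM values use TMM library sizes. Shares and ratios were compared with exact permutation tests (scipy 1.17.1). Alternatives were a replicate block, median-ratio size factors, no filter, DESeq2 1.42.0, limma 3.58.1 on log2(FPKM + 1) and log2(FPKM + 0.1), only the 6 libraries compared and leaving out each library, plus summed Hamp and Hamp2 counts, added after seeing the data. Fits were tested on simulated data.

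The members, lists and tests were chosen with earlier results of these data known. Named genes were the 10, 12 fixed related genes, up to 5 called genes per list and comparison with the smallest adjusted p, and the 3 genes nearest to Hamp and to Bmp2 in centred log2 CPM (prior count 2). The heme handling genes that fell in the combined group against saline were named as well. Promoters are from RefSeq for GRCm38.p6 and iron-responsive elements from GENCODE M21 transcripts. No promoter was at hand for Bmp2, Id1, Smad7 and Slc40a1.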

Additional observations from a re-analysis of the deposited data

How the results depend on the processing

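With 3 libraries a group, calls near the threshold moved with single libraries, and the exact tests could not go below p = 0.1. The counts of member genes called were 2, 4 and 7 for gefitinib against saline, combined against gefitinib and combined against saline. With gefitinib against saline the count was 1 with the replicate block and 4 with DESeq2. Leaving out 1 library each gave ranges of 0 to 2, 2 to 5 and 5 to 7. Of the pathway genes including the members, 9, 24 and 38 were called. With gefitinib against saline this was 3 with the replicate block, 5 with no filter, 15 with DESeq2, 4 with limma on log2(FPKM + 1) and 5 on log2(FPKM + 0.1), and for combined against gefitinib 15 with the block and 14 with no filter. Leaving out 1 library gave 0 to 8, 7 to 20 and 27 to 42. Over all tested genes, the 206 calls with gefitinib against saline became 82 with the block, 82 with no filter, 103 and 115 with limma on log2(FPKM + 1) and log2(FPKM + 0.1), and 868 with DESeq2. The 1644 calls for combined against gefitinib became 1028 with the block, 1092 with no filter and 2745 with DESeq2. Leaving out 1 library gave 32 to 171, 751 to 1497 and, from 3205 calls for combined against saline, 2065 to 2967.

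Same-numbered libraries of different groups had correlations of their deviations from -0.0756 to 0.0716 and differently numbered ones from -0.0603 to 0.0634. Not every library correlated best with its own number. Whether same-numbered libraries were paired cannot be settled by this, as a pairing that touches few genes would not show in such correlations. The replicate block lost the calls of Hfe in both comparisons with saline, of Tfrc for combined against gefitinib and of Smad7 for combined against saline. The Hamp difference with gefitinib against saline changed sign with median-ratio size factors (0.0060), with no filter (0.00021) and with DESeq2 (0.0069), and ran from -0.65 to 0.49 without 1 library. Without 1 library, Tfr2 with gefitinib against saline ran from -0.031 to 0.059, Smad7 for combined against gefitinib from -0.079 to 0.32 and Tfrc with gefitinib against saline from -0.0013 to 0.66.

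The difference in Hamp2 share ran from -7.25 to -1.54, from -3.41 to -0.565 and from -9.50 to -3.79 percentage points in the 3 comparisons without 1 library. For Bmp2 per endothelial marker sum the ranges were -0.879 to -0.545, -0.244 to 0.0777 and -0.965 to -0.664, and for Bmp6 0.170 to 0.2997, -0.0706 to 0.0861 and 0.180 to 0.323. With FPKM the Bmp6 differences were 0.348 for gefitinib against saline (0.237 from counts) and 0.381 for combined against saline (0.229 from counts). The causes of these shifts were not tested.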
